A study of Homo sapiens with 6 samples.

Results

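The EGR and NR4A immediate early factors were described here in U2932 cells, an established human cell line of diffuse large B cell lymphoma. The genes were chosen by name as EGR1, EGR2, EGR3, NR4A1, NR4A2, NR4A3, IER2 and IER3, with their regulators SRF and NAB2. Of these 10 genes, 9 had a row among the 34675 genes of the authors' deposited table, and IER3 was not analysed here. The study infected U2932 cells with a short hairpin RNA against PRDM11, a PR domain gene whose relatives act on transcription and chromatin (3 samples), or with a scrambled hairpin (3 samples), and kept both under puromycin for 3 days. Each arm carried 1 plasmid, so 1 hairpin sequence stands for the knockdown. The deposited comparison names its sides only condition A and condition B. No header or label ties either of them to a hairpin, so every difference below is condition A relative to condition B.

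Immediate early genes are transcribed within minutes of a signal from ready-made factors, without new protein synthesis. In B cells they follow antigen receptor signalling through the ERK cascade and calcium. ERK phosphorylates ETS-type cofactors of SRF, which sits on serum response elements (CArG boxes) near genes such as EGR1. EGR proteins are zinc finger activators of GC-rich sites and are held back by the corepressors NAB1 and NAB2, and NR4A proteins are orphan nuclear receptors that act without a known classical ligand.

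RefSeq promoter windows of 300 bases (250 before to 50 after an annotated start, build GRCh38.p14) were found for 7 of the 10 genes, in 11 windows. They are shown for the genes whose windows hold the CArG box bound by SRF, because the results set EGR1 against SRF itself. CArG boxes are in capitals. The EGR1 window is chr5:138465229-138465528 on the plus strand, the EGR2 window chr10:62816317-62816616 on the minus strand and the SRF window chr6:43171019-43171318 on the plus strand.
EGR1: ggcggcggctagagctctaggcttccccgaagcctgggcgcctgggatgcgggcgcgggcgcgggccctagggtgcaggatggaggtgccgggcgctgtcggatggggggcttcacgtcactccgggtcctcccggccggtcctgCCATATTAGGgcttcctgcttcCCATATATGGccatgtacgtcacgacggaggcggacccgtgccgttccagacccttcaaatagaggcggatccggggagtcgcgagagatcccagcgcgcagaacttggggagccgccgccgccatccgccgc
EGR2: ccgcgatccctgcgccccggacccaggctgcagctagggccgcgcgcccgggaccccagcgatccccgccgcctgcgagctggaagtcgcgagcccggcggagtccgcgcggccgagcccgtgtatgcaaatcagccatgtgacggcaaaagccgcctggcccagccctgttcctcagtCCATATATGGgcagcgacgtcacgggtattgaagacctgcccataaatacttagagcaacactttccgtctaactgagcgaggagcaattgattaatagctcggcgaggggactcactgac
SRF: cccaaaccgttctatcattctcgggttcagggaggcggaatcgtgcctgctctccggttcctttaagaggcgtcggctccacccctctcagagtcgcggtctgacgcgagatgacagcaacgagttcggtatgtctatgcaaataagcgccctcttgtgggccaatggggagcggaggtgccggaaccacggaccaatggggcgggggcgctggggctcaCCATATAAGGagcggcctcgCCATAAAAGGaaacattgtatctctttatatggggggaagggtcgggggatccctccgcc

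EGR1 held 2 CArG boxes, CCATATTAGG from 105 and CCATATATGG from 83 bases before the start. EGR2 held CCATATATGG from 71 bases before the most downstream of its annotated starts, and its other windows held none. SRF held CCATATAAGG and CCATAAAAGG from 30 and 10 bases before its start, and a further SRF window held none. A CArG box, searched on both strands, occurred in 1.29% of the 35116 windows of the table. NR4A1, NR4A3, IER2 and NAB2 had no CArG box in their windows. The NR4A3 window (chr9:99821635-99821934, plus strand) is shown with the cyclic AMP response half-site TGACG in capitals on either strand, and the NAB2 window (chr12:57088864-57089163, plus strand) with the EGR-type site GCGGGGGCG in capitals.
NR4A3: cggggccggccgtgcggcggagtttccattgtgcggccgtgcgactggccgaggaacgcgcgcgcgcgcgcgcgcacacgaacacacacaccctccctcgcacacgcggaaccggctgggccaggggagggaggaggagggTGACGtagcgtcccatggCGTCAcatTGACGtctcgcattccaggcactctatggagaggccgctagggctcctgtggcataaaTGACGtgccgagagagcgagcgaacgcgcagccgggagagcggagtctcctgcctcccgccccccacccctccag
NAB2: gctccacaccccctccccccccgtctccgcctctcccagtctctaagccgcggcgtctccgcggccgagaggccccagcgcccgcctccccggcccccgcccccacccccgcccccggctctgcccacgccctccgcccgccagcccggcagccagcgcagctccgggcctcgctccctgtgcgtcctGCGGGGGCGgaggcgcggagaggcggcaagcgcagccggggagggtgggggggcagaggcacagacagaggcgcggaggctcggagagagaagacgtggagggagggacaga

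TGACG or its reverse complement occurred 4 times in the NR4A3 window, 2 times each in the EGR1 window and in the EGR2 window shown above, 1 time each in the IER2 window and in the SRF window shown above, and in 24.6% of all windows. GCGGGGGCG or its reverse complement occurred 1 time in the NAB2 window, 1 time in the SRF window shown above and in 5.07% of all windows. The EGR site GCGTGGGCG and the NR4A monomer site AAAGGTCA, both searched on both strands, were found in no window of these genes. These matches describe letters in the windows and were not tested for binding.

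Whole reads of 3 libraries per condition were recovered from the deposited means. They are called A1 to A3 and B1 to B3 in order of falling size factor, which is the authors' depth correction, and these numbers are not the replicate numbers given by the labels. Size factors were 1.21, 1.03 and 0.768 in condition A and 1.09, 1.05 and 0.951 in condition B, and the deposited means summed to 43812481 normalised reads (reads divided by the size factor) in condition A and 41847907 in condition B. PRDM11 had 268.0, 272.1 and 322.7 normalised reads in condition A and 565.5, 515.9 and 544.9 in condition B. B cell markers were high, with 6 of 6 present and means in the authors' deposited table that summed to 211639 in condition A and 181577 in condition B. The 3 of 5 T and NK cell markers with a row summed to between 14.1 and 28.6 normalised reads per library in condition A and between 10.1 and 16.8 in condition B, and the 4 myeloid markers to between 62.0 and 70.3 in condition A and between 43.1 and 66.6 in condition B. The 4 epithelial and fibroblast markers summed to between 1281 and 1451 in condition A and between 1207 and 1402 in condition B, nearly all of it EPCAM. No marker with a row had a mean of 0 over both conditions. In single libraries, CD3G was at 0 in A2 and B2 and LYZ was at 0 in A3 and B2. The part of other cells in the results was not tested. The labels do not state separate cultures, so p-values measure the spread between these libraries, which may be technical.

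The EGR genes and NR4A1 were higher in condition A. EGR1, EGR2, EGR3 and NR4A1 passed the threshold of 0.05 for the adjusted p that the authors' deposited table holds, all in that direction. NR4A2, NR4A3, IER2, SRF and NAB2 did not pass. That makes 4 of 9 genes higher and 0 of 9 lower, where 0.966% of all rows were called higher and 1.57% lower. Among rows with a mean of at least 100, with p adjusted over those rows, 3.33% were called higher. The genes were chosen with earlier results of these data known, so these counts beside the shares are no test. The median log2 ratio of the 8 genes with a mean of at least 50 was 0.39, against -0.0024 for all 13565 rows at that level. In RNA from whole cultures, more RNA per cell and more expressing cells cannot be told apart.

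**Figure D1:**
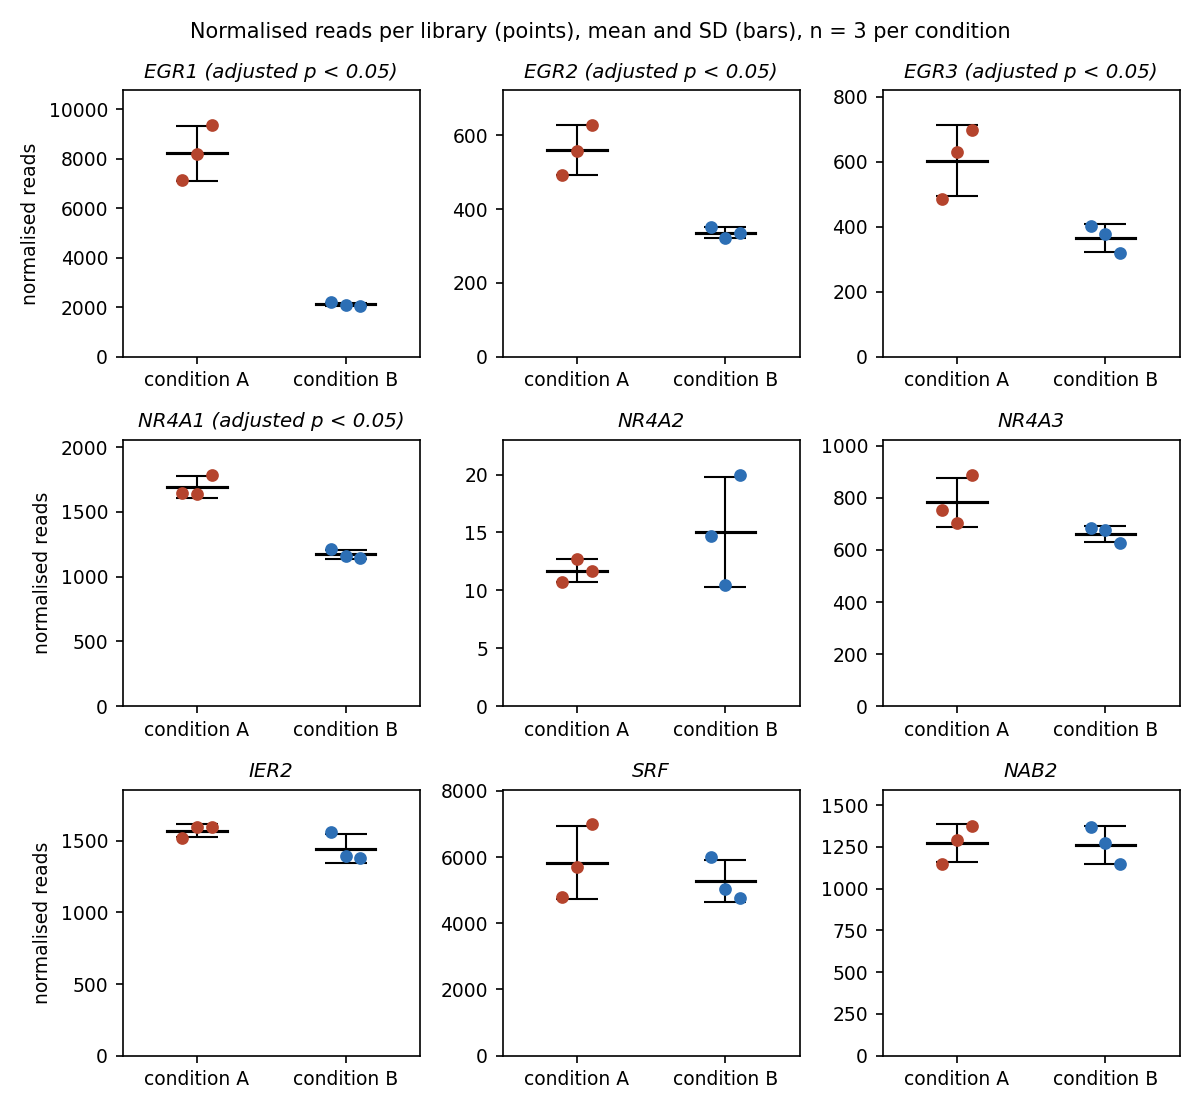
Normalised reads of the 9 genes in each library, condition A left of condition B, with the mean and SD of 3 libraries as bars and every vertical axis starting at 0. EGR1, EGR2, EGR3, NR4A1 and NR4A3 have all 3 libraries of condition A above the 3 of condition B, and the other 4 genes overlap. Of all rows with a mean of at least 50, 15.7% have the libraries of condition A all above those of B.

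EGR1, the zinc finger factor most widely used as a readout of ERK signalling, moved most. EGR1 (ENSG00000120738, chromosome 5, coding intervals 137801451 to 137803767 in hg19) had 7117, 8170 and 9349 normalised reads in condition A and 2189, 2092 and 2043 in condition B. The lowest library of condition A was far above the highest of condition B. EGR1 averaged 8212 ± 1117 in condition A and 2108 ± 74.2 in condition B (SD, n = 3 each), a ratio of 3.90. Its log2 ratio was 1.96 by the authors' deposited table (adjusted DESeq p = 7.29e-21, the 6th smallest p of all rows). A limma fit of the recovered reads gave 1.95 with a 95% interval from 1.73 to 2.18.

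EGR2, a relative that restrains lymphocyte activation and shapes B cell tolerance, changed less. EGR2 (ENSG00000122877, chromosome 10, 64572970 to 64575789 in hg19) had 492.9, 557.8 and 627.3 normalised reads in condition A and 351.0, 322.7 and 334.5 in condition B. The conditions did not overlap, and the means were 559.3 ± 67.2 in condition A and 336.1 ± 14.2 in condition B (SD, n = 3 each). For EGR2 the log2 ratio was 0.73 by the authors' deposited table (adjusted DESeq p = 5.52e-05).

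EGR3, often induced together with EGR2, had nearly the same ratio with a wider spread. EGR3 (ENSG00000179388, chromosome 8, 22547989 to 22550457 in hg19) had 484.7, 630.0 and 697.5 normalised reads in condition A and 401.4, 377.0 and 318.7 in condition B. Library A1 came closest to condition B. AC055854.1 overlaps 164 bases of EGR3 exons in GENCODE 29, with a mean of 0 for condition A and 0.351 for condition B by the authors' deposited table. EGR3 averaged 604.1 ± 109 in condition A and 365.7 ± 42.5 in condition B (SD, n = 3 each). Its log2 ratio was 0.72 by the authors' deposited table (adjusted DESeq p = 0.0380). This call was the least firm of the 4. The limma adjusted p of EGR3 was 0.0162 with all libraries, but 0.0795 without library A2, 0.0660 without library B2 and 0.0752 without library B3. Without each of these libraries the limma calls over all rows also fell to 363, 351 and 362, against 1485 with all libraries (8.91% of 16665 rows).

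The EGR family kept EGR1 as its main member in both conditions. Reads per kilobase divide by the annotated exon length of each gene, such as 3.138 kilobases for EGR1 and 7.295 kilobases for NR4A1. The length of the transcripts expressed in these cells was not tested. Levels and family shares of different genes on the scale of reads per kilobase are therefore approximate. On that scale EGR1 stood at 2617 ± 356 in condition A and 671.7 ± 23.6 in condition B, EGR2 at 151.6 ± 18.2 in A and 91.1 ± 3.86 in B, and EGR3 at 124.4 ± 22.4 in A and 75.3 ± 8.75 in B (normalised reads per kilobase, SD, n = 3 each). EGR1 made up 90.4 ± 0.224% of the summed level of EGR1 to EGR4 in condition A and 79.7 ± 0.437% in condition B (SD, n = 3 each). EGR4, the remaining family member, was near the floor, with 7, 10 and 8 reads in libraries of condition A and 10, 13 and 10 in those of condition B (log2 ratio -0.30 and adjusted DESeq p = 1, both by the authors' deposited table).

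NR4A1, also called NUR77 and a reporter of antigen receptor signalling, was the called NR4A gene. NR4A1 (ENSG00000123358, chromosome 12, 52432494 to 52452725 in hg19) had 1646, 1634 and 1787 normalised reads in condition A and 1211, 1162 and 1141 in condition B. The conditions stood apart with little spread inside each, at 1689 ± 84.9 in condition A and 1171 ± 35.6 in condition B (SD, n = 3 each). For NR4A1 the log2 ratio was 0.53 by the authors' deposited table (adjusted DESeq p = 0.00214), with a limma 95% interval from 0.35 to 0.71. A long noncoding gene on the opposite strand, AC025259.3, overlaps 754 bases of NR4A1 exons in GENCODE 29. Its deposited mean was 16.8 in condition A against 4.02 in condition B (adjusted DESeq p = 0.0172 by the authors' deposited table). The strand setting of the counting is not given in the sources used here, so reads of this pair cannot be told apart with certainty.

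NR4A3, also called NOR1, did not pass although its libraries stood apart. NR4A3 (ENSG00000119508, chromosome 9, 102589053 to 102626146 in hg19) had 754.3, 705.1 and 888.9 normalised reads in condition A and 683.7, 675.9 and 625.9 in condition B. All 3 libraries of condition A lay above those of condition B, as they did in 15.7% of rows with a mean of at least 50. For NR4A3 the log2 ratio was 0.24 by the authors' deposited table (adjusted DESeq p = 0.679), and the limma 95% interval ran from 0.0040 to 0.47. That interval is not adjusted over rows, and NR4A3 did not pass in limma either (limma adjusted p = 0.180). A ratio of up to 1.38 is therefore inside the interval.

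NR4A2, also called NURR1, was barely detected. NR4A2 (ENSG00000153234, chromosome 2, 157182259 to 157189022 in hg19) had 13, 13 and 9 reads in libraries of condition A and 16, 11 and 19 in those of condition B. Counts this low overlap between conditions and carry a wide interval, from -0.98 to 0.39 on the log2 scale in limma. Per kilobase of exon, NR4A1 made up 64.7 ± 1.55% of the summed NR4A level in condition A and 59.7 ± 0.405% in condition B. NR4A3 made up 34.5 ± 1.64% in A and 38.9 ± 0.878% in B. NR4A2 made up 0.827 ± 0.101% in A and 1.41 ± 0.482% in B (SD, n = 3 each for all shares). These shares depend on the annotated exon lengths, 7.295 kilobases for NR4A1, 6.314 for NR4A3 and 3.967 for NR4A2.

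IER2, a small nuclear protein of the immediate early response, overlapped between the conditions. IER2 (ENSG00000160888, chromosome 19, 13264001 to 13264669 in hg19) had 1519, 1595 and 1599 normalised reads in condition A and 1565, 1395 and 1380 in condition B. Library B1 lay inside the range of condition A. For IER2 the log2 ratio was 0.12 by the authors' deposited table (adjusted DESeq p = 1), and the limma 95% interval, from -0.065 to 0.31, leaves out the ratio seen for EGR2. AC011446.2, not analysed here, overlaps 946 bases of IER2 exons in GENCODE 29, so reads of this pair may be mixed.

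SRF, the factor that binds CArG boxes, was abundant and spread widely inside each condition. SRF (ENSG00000112658, chromosome 6, 43139395 to 43146925 in hg19) had 4810, 5687 and 6995 normalised reads in condition A and 5992, 5050 and 4775 in condition B. The lowest library of condition A was nearly as low as the lowest of condition B. SRF averaged 5831 ± 1099 in condition A and 5272 ± 638 in condition B (SD, n = 3 each). Its log2 ratio was 0.15 by the authors' deposited table (adjusted DESeq p = 1). The limma 95% interval of SRF ran from -0.16 to 0.43, and its sign turned without library A3, where the log2 ratio was -0.0047.

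NAB2, a corepressor that EGR proteins induce and that restrains them in turn, had the ratio nearest to 1. NAB2 (ENSG00000166886, chromosome 12, 57483055 to 57488501 in hg19) had 1148, 1294 and 1373 normalised reads in condition A and 1372, 1272 and 1147 in condition B. The ranges of the conditions nearly coincided. For NAB2 the log2 ratio was 0.0094 by the authors' deposited table (adjusted DESeq p = 1), the limma 95% interval ran from -0.21 to 0.23, and the sign of this value changed with the scaling. STAT6 lies on the opposite strand and overlaps 69 bases of NAB2 exons in GENCODE 29, with means of 15885 for condition A and 14825 for condition B by the authors' deposited table.

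**Figure D2:**
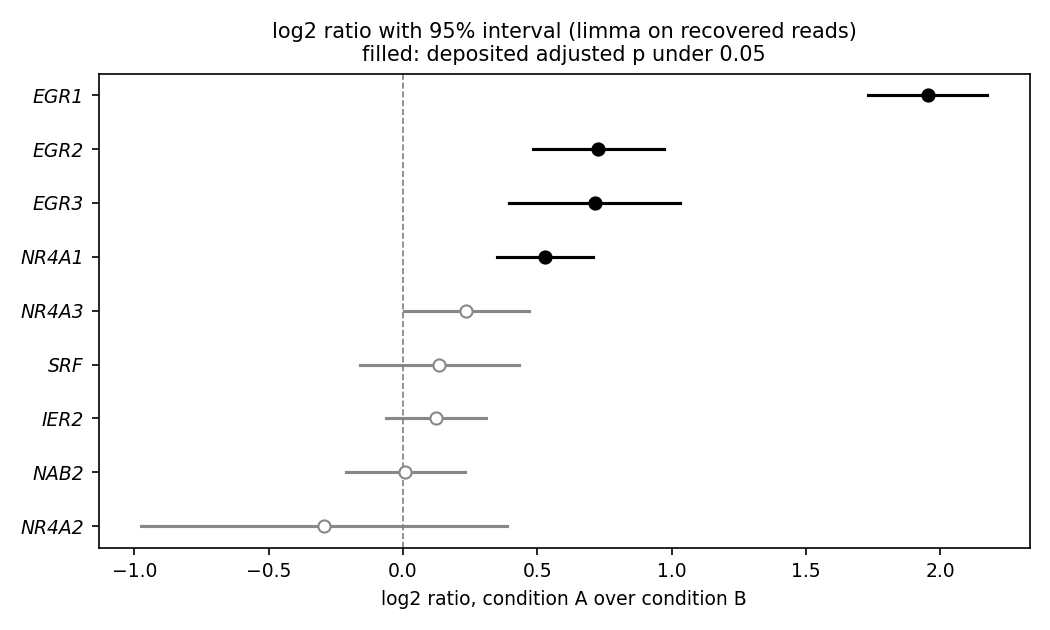
The log2 ratio of condition A over condition B for the 9 genes, as points with 95% intervals from limma on the recovered reads (3 libraries per condition), filled where the deposited DESeq adjusted p was under 0.05. The interval of EGR1, from 1.73 to 2.18, lies above the intervals of all other genes shown, and those of SRF, IER2, NAB2 and NR4A2 cross 0. The intervals are not adjusted over rows, and NR4A3, just above 0, was not called in limma.

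**Figure D3:**
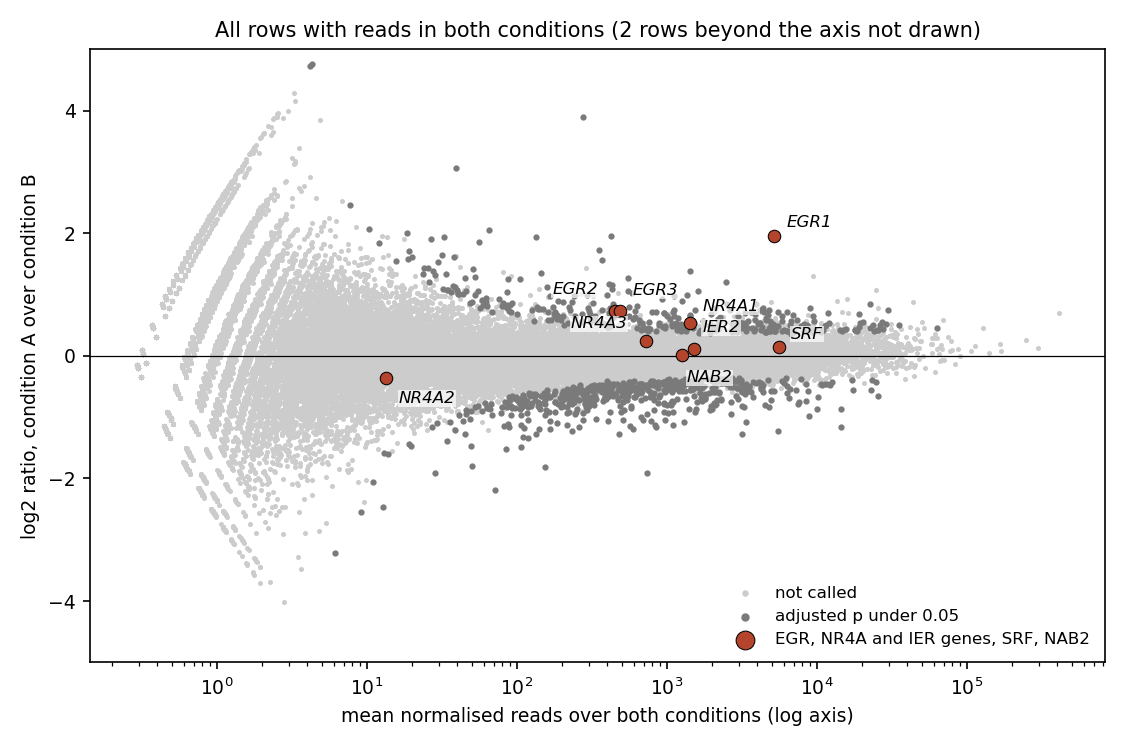
The log2 ratio of condition A over condition B (vertical axis) against the mean normalised reads over both conditions (logarithmic horizontal axis) for 29066 rows with reads in both conditions. EGR1 stands at a log2 ratio of 1.96, while SRF at a like mean level lies near 0 within the uncalled rows.

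Ordered by level per kilobase in condition A, EGR1 came first, then SRF at 1388 ± 262, IER2 at 511.5 ± 14.7, NAB2 at 422.5 ± 37.9 and NR4A1 at 231.5 ± 11.6 (normalised reads per kilobase, SD, n = 3). EGR2, EGR3 and NR4A3 followed, and the libraries of NR4A3, at 124.0 ± 15.1, overlapped with those of EGR2 and of EGR3. NR4A2 was last at 2.95 ± 0.243. In condition B the order began with SRF at 1255 ± 152, and EGR1 came second. IER2 at 470.9 ± 33.5, NAB2 at 419.7 ± 37.5 and NR4A1 at 160.6 ± 4.88 followed. NR4A3 at 104.8 ± 4.97 was above EGR2 and EGR3 there, and NR4A2 was last at 3.79 ± 1.20. The order in each condition depends on the annotated exon lengths.

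Within each library EGR1 was also set against its relatives, its upstream regulator SRF and its corepressor NAB2. A ratio of reads inside 1 library does not depend on scaling. The log2 ratio of EGR1 to EGR2 reads was 3.85, 3.87 and 3.90 in condition A and 2.64, 2.70 and 2.61 in condition B. The 3 libraries of condition A thus spanned a narrow range. EGR1 relative to EGR3 differed by 1.24, relative to NR4A1 by 1.43, relative to SRF by 1.82 and relative to NAB2 by 1.94 on the log2 scale (condition A minus condition B), each with the libraries of the conditions apart. EGR1 reads outnumbered SRF reads in condition A, where the log2 ratio was 0.57, 0.52 and 0.42, and fell short of them in condition B, where it was -1.45, -1.27 and -1.23. The ratios that hold EGR1 share its reads, so they are not separate results. NR4A1 relative to NR4A3 differed by 0.29. EGR2 relative to EGR3 gave 0.02, -0.18 and -0.15 in condition A and -0.19, -0.22 and 0.07 in condition B, with a difference of 0.01 (exact permutation p = 0.8, two-sided). The other 6 of these 7 ratios had an exact permutation p of 0.1, two-sided, the smallest that 3 against 3 libraries allow, or 0.117 after Benjamini-Hochberg adjustment over the 7, so none could pass 0.05.

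**Figure D4:**
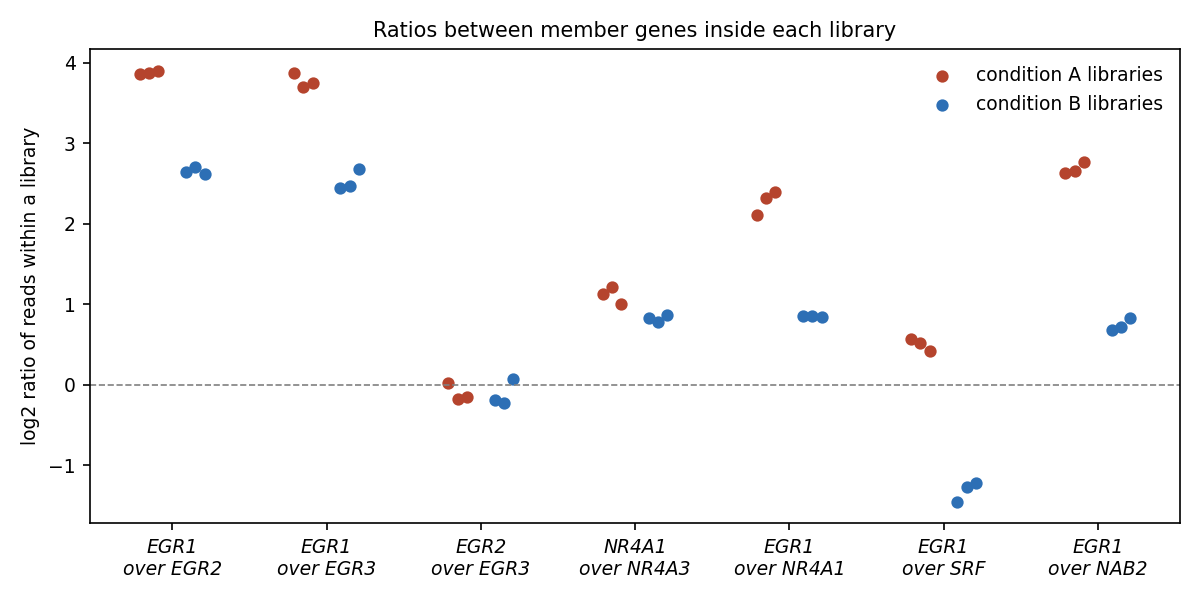
The log2 ratio of reads of one gene to reads of another inside each library, 3 libraries of condition A left of 3 of condition B for each of 7 pairs. EGR1 over EGR2 lies between 3.85 and 3.90 in condition A and between 2.61 and 2.70 in condition B, and EGR2 over EGR3 overlaps between conditions.

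The genes nearest to EGR1 over the 6 libraries were FOS, DHRS2, HBEGF, HIST2H2BE and JUN. They were the nearest of 8739 genes with a symbol and a mean of at least 200, by the root mean square difference of log2 values centred on each gene's mean. This distance takes in the gap between the conditions, so genes with a like ratio of A to B come out near. FOS, an AP-1 subunit and immediate early gene, was nearest at 0.12, with 642.6, 693.4 and 678.0 normalised reads in condition A and 167.7, 164.7 and 185.1 in condition B. DHRS2, a short-chain dehydrogenase, was at 0.17 and HBEGF, a ligand of the EGF receptor, at 0.29. HIST2H2BE, a histone gene, and JUN, another AP-1 subunit, were both at 0.36. Inside the conditions these genes did not all run like EGR1, which was highest in A3 and B1. HBEGF and JUN were also highest in A3, but FOS, DHRS2 and HIST2H2BE in A2. DHRS2, HBEGF and JUN were highest in B1, but FOS and HIST2H2BE in B3.

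Other immediate early genes were higher in condition A in part. Of 22 listed genes, 8 were called higher and 0 lower by the authors' deposited table, where 0.966% of all rows were called higher and 1.57% lower. Rows with a mean of at least 100, with p adjusted over those rows, were called higher in 3.33%. This list and the lists below were chosen with earlier results of these data known. Their counts of calls beside the shares of all rows are therefore no test. The median log2 ratio of the list was 0.45 over the 19 genes with a mean of at least 50. The 4 with the smallest p were FOS, JUN, BTG2 and ZFP36, with log2 ratios of 1.96, 1.27, 0.68 and 0.85 by the authors' deposited table. BTG2 is an antiproliferative gene, and ZFP36 encodes a protein that promotes decay of AU-rich messenger RNAs. The 4 other called genes were PPP1R15A, DUSP2, KLF10 and RGS1, with log2 ratios of 0.72, 0.52, 0.41 and 0.89 by the authors' deposited table. The 14 genes not called included some with large differences and some with none to speak of, and those named here were picked after their values were seen. CD69, an early activation antigen of lymphocytes, had 587.2, 418.4 and 249.9 normalised reads in condition A and 141.1, 156.1 and 170.4 in condition B, apart but widely spread (adjusted DESeq p = 0.0898 by the authors' deposited table). MYC had a log2 ratio of -0.33 and KLF6 one of 0.03 by the authors' deposited table.

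None of 8 SRF cofactors and EGR corepressors was called in the authors' deposited table. With 2.54% of all rows called in either direction, no call among 8 genes is no result about the list. Of the 6 with a mean of at least 50, 5 had a log2 ratio above 0. MKL2, a cofactor of SRF that responds to actin, had the smallest p, with 1274 normalised reads on average in condition A and 908.5 in condition B (log2 ratio 0.49 and adjusted DESeq p = 0.0711, both by the authors' deposited table, limma adjusted p = 0.0268). Of 19 ERK cascade genes, RASGRP1 and RASGRP3, exchange factors that load RAS with GTP, were lower and 0 higher, beside 1.57% of all rows called lower. The share called lower was 5.63% for rows with a mean of at least 100, with p adjusted over those rows. RASGRP1 had 676.6, 675.8 and 636.4 normalised reads in condition A and 982.5, 1460 and 1328 in condition B (log2 ratio -0.92 and adjusted DESeq p = 0.00318, both by the authors' deposited table). RASGRP3 had a log2 ratio of -0.43 (adjusted DESeq p = 0.0150 by the authors' deposited table).

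Of 24 CREB, MEF2 and calcium-NFAT regulators, MEF2C, HDAC5 and HDAC9 were called higher and 0 lower by the authors' deposited table, beside 0.966% of all rows called higher. The share called higher was 3.33% for rows with a mean of at least 100, with p adjusted over those rows. The list had a median log2 ratio of 0.18. MEF2C, a transcription factor needed for B cell responses, had a log2 ratio of 0.49 (adjusted DESeq p = 0.00260 by the authors' deposited table). HDAC5 and HDAC9, class IIa deacetylases that repress MEF2 factors, had 0.48 and 0.39 by the authors' deposited table. Of the 3 RXR genes, whose products pair with NR4A1 and NR4A2, 2 had a row, RXRA and RXRG, and RXRB was not analysed here. RXRA, with means of 23.5 for condition A and 18.7 for condition B by the authors' deposited table, was not called.

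Of 14 cytoskeletal targets of SRF, VCL, the focal adhesion protein vinculin, was called lower and 0 higher by the authors' deposited table, beside 1.57% of all rows called lower, so a single call in this list is no result about it. VCL had 503.7, 513.9 and 560.9 normalised reads in condition A and 1162, 1210 and 1155 in condition B (log2 ratio -1.16 and adjusted DESeq p = 1.80e-16, both by the authors' deposited table). None of 9 EGR1 targets known from other cell types, NAB2 among them, was called in the authors' deposited table. Over all rows 2.54% were called in either direction, so 0 calls in this list is no result about it. A mean of at least 50 was reached by 7 of the 9.

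Of 7 heat stress genes with a row, HSPA6 and HSPB1 were called higher and 0 lower by the authors' deposited table, beside 0.966% of all rows called higher. At a mean of at least 100, with p adjusted over those rows, 3.33% of rows were called higher. HSPA6, an inducible HSP70 chaperone, had 706.3, 323.8 and 515.4 normalised reads in condition A and 44.9, 23.8 and 34.7 in condition B. HSPB1, a small heat shock protein, had 193.5, 175.5 and 282.4 in condition A and 120.1, 94.2 and 84.1 in condition B. The 5 heat stress genes not called had log2 ratios from -0.22 to 0.66 by the authors' deposited table, and the median of all 7 was 0.25. Within condition A, EGR1, EGR2 and EGR3 were lowest in library A1 and highest in A3, while HSPA6 was highest in A1 and HSPB1 in A3. Their part in the higher EGR and NR4A1 values was not tested.

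**Figure D5:**
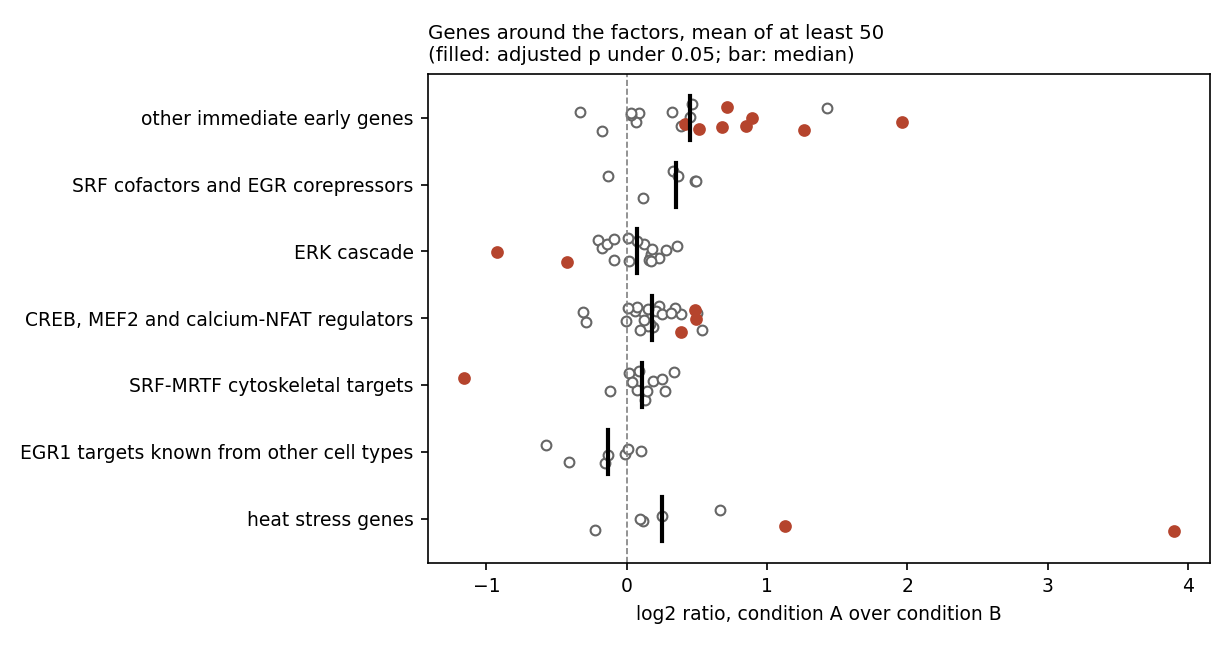
The log2 ratio of condition A over condition B for genes with a mean of at least 50 in 7 lists, 1 point per gene, filled where the deposited DESeq adjusted p was under 0.05, with the list's median as a bar. Filled points lie to the right of 0 for other immediate early, CREB, MEF2 and calcium-NFAT, and heat stress genes, and to the left for the ERK cascade and the cytoskeletal targets.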

How the data were processed

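Per the submitters' processing notes, STAR, HTSeq 0.5.4p5 and DESeq 1.14.0 were used on build hg19. No source used here gives their roles, the annotation release or how strand was treated. Per the file headers, the deposited table gives for each gene a mean signal of each condition (reads divided by size factors), a fold (ratio of condition B to condition A), the log2 of that fold, and p-values before and after adjustment. The log2 sign was turned here to condition A over condition B. The deposited track's score is made from the p-value and was not used, while its intervals gave hg19 positions. No column of values per sample was left out (0).

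Each deposited mean is a weighted sum of 3 whole reads printed with 15 digits, so an integer search up to a mean of 10000 recovered the reads: 1 solution was found for 33764 of 33765 rows (condition A) and for 33848 of 33848 (condition B), and 33727 rows had both. The 9 genes described were all recovered. Size factors recomputed from these reads came to 1.21, 1.02 and 0.765 (condition A) and 1.09, 1.05 and 0.955 (condition B). Recovered reads came to between 17961246 and 27886654 per library. They leave out the most abundant genes and are not the full depth.

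Calls used the authors' deposited DESeq p at an adjusted 0.05 over all 34675 rows. The design assumed such a table. limma 3.58.1 in R 4.3.3 on log2(normalised reads + 1) over rows with a mean of at least 10 was the alternative, with intervals from it. Its log2 ratios are on that scale, which understates changes of low genes. The recovery and the limma fit were checked on simulated data. The recovery returned the right reads for 1498 of 1500 rows (condition A) and 1500 of 1500 (condition B). The limma fit called 91% of rows changed by 1 on the log2 scale and 50% of those changed by 0.5, with 4 false calls. That simulation gave every gene the same relative spread beyond counting, whereas the spread of these genes differed. Exon lengths and overlaps came from GENCODE 29 and promoters from RefSeq. Named were all members, up to 4 called genes (or the one with the smallest p) of each of 8 lists, and the 5 genes nearest to EGR1. A gene that this rule names in the list of EGR1 targets is not reported here. Members and lists were chosen with earlier results of these data known.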

Additional observations from a re-analysis of the deposited data

How the results depend on the processing

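EGR1, EGR2 and NR4A1 kept their direction and their call under all 14 alternatives, with log2 ratios from 1.86 to 2.05, from 0.64 to 0.81 and from 0.49 to 0.58. EGR3 kept its direction in all 14 (0.60 to 0.86) and lost its call in 3, without library A2, B2 or B3, and also at an adjusted p threshold of 0.01. The number of the 9 genes called higher ran from 3 to 4 and the number called lower was 0 under all 16 alternatives. NR4A3, IER2 and NR4A2 kept their direction and stayed uncalled, with log2 ratios from 0.14 to 0.31, from 0.09 to 0.18 and from -0.51 to -0.08. NR4A2 could not be tested among rows with a mean of at least 100. NAB2 turned to -0.0074 when reads were scaled by their total, to -0.0052 without A2, -0.048 without A3 and -0.059 without B3, with a range from -0.059 to 0.081 with 1 library left out, while SRF ran from -0.0047 to 0.27. The cause was not tested. Of the 103 listed genes around the factors, 16 were called by the authors' deposited table. Between 18 and 22 were called under the other settings. With 1 library left out in limma the count ran from 9 to 26 (26 without A1, 10 without A2 and 9 without B2). These counts are not over the same genes. The limma fits leave out listed genes without recovered reads, such as BTG2, MEF2C and RASGRP3, which the deposited table calls. Limma fits with a filter on the mean also leave out genes under it. The share of all rows called moved too, from 2.54% by the authors' deposited table to 8.91% in limma, 12.8% without A1, 2.18% without A2 and 2.11% without B2. Upper quartile scaling moved the median of all rows by 0.05 on the log2 scale and the limma split to 858 higher and 622 lower, against 607 higher and 878 lower with the deposited size factors. No paired analysis was possible because the recovered libraries carry no replicate number. NR4A2 had 9 to 19 reads per library, which limits the precision of its ratio.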

Other observations

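The spread inside a condition exceeded counting error for most of these genes and differed between them. EGR1 had a coefficient of variation of 13.6% in condition A and 3.52% in condition B, where counting alone gives 1.11% and 2.14%. SRF had 18.9% and 12.1%, where counting gives 1.33% and 1.35%, and IER2 had 2.87% and 7.12%, where counting gives 2.53% and 2.59%. Library A3 held the highest value of condition A for 8 of the 9 genes and library A1 the lowest for 7 of 9, and across 12617 rows with a mean of at least 50 these shares were 42.4% and 38.6%. In condition B, library B1 was highest for 8 of 9 genes and B3 lowest for 7 of 9, against 43.8% and 30.4% of those rows. A3 and B3 were each the shallowest library of their condition.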
